A study of Mus musculus with 8 samples.

Results

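The p38 MAP kinase pathway was examined in AML12 cells, an immortalized mouse hepatocyte line from the liver of a mouse transgenic for human TGF-α, after treatment with the peptide irisin. The pathway is represented by 10 genes of 21612 genes with a symbol on the array. These are the p38 kinases Mapk14, Mapk11, Mapk12 and Mapk13, the upstream kinases Map3k5, Map2k3 and Map2k6, and the downstream members Mapkapk2, Mapkapk3 and Atf2. They were chosen by name, and every array probe whose accession belonged to one of them was taken, 15 probes in all. Total RNA came from 4 control samples cultured for 24 h without irisin and from 4 samples cultured for 24 h with 0.5 µg/ml irisin. All 8 samples were AML12 cells kept in the same medium with fetal bovine serum, and each was hybridized to 1 array. The labels do not say whether the replicates were separate cultures, so p-values measure the spread between these samples, which may be technical.

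In this pathway, MAP3 kinases such as ASK1, the product of Map3k5, phosphorylate the dual-specificity kinases MKK3 and MKK6, the products of Map2k3 and Map2k6. These in turn activate the p38 kinases, of which p38α, encoded by Mapk14, is found in most tissues and is known to restrain the proliferation of hepatocytes. Active p38 phosphorylates the kinases MK2 and MK3, encoded by Mapkapk2 and Mapkapk3, and transcription factors such as ATF2. The pathway is switched by phosphorylation, while the arrays measure the mRNA of its members only.

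The log2 signal of a probe, minus the 75th percentile of log2 signals on the same array, is called its relative log2 signal below. The precision of these values is limited by the number of arrays. A change is the irisin mean minus the control mean on this scale. It was called when it reached 1.5-fold with an adjusted p under 0.05 in limma over all 24091 tested probes. Before scaling, the 75th percentile ranged from 374 to 534 on the control arrays and was higher on the irisin arrays, 684 to 853. The groups were hybridized on separate slides, each scanned once, and the effect of treatment and that of slide or scan cannot be told apart. Irisin replicate 2 stood apart from the other irisin arrays at 2.13% of the probes well above background on all 8 arrays, against 0.354% to 1.34% for the other 7 arrays. Of the hepatocyte markers, 11 of 12 were tested, and Alb (4.33 ± 0.13), Ttr (5.53 ± 0.15) and Hnf4a (5.17 ± 0.056) were bright in control cells (relative log2 signal, SD, n = 4). Apoa1 (-2.69 ± 0.11), Tat (-3.93 ± 0.14) and Cyp2e1 (-4.15 ± 0.31) were dim, and Cps1 was not well above background on all arrays of either group.

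The mRNA of the p38 pathway members was measured on every array and moved little with irisin. All 15 probes were well above background on all 8 arrays, and none of their spots was marked as an outlier. With the brightest probe standing for each gene, limma called 0 of the 10 members, against 0.531% of 14310 tested genes called higher and 10.1% called lower. At an unadjusted p under 0.05, 3 members were lower and 0 higher, against 23.5% and 6% (lower and higher) of all tested genes, and the methods' test, which uses the spread of each probe alone, also called 0 of 10. The median change of the members was 0.016, beside -0.063 for all tested genes. The changes lay between -0.43 for Mapk13 and 0.13 for Map2k3. For 8 of the 10 members the 95% interval of the change lay within 1.5-fold in either direction (0.58 on the log2 scale). For Mapk13 and Map3k5 it reached further down. These values depend on the scaling. With spike-in scaling and without scaling the median change of the members was 0.59 and 0.75, beside 0.50 and 0.66 for all tested probes. There 5 and 6 members were called higher, beside 32.5% and 61.9% of all tested probes.

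**Figure D1:**
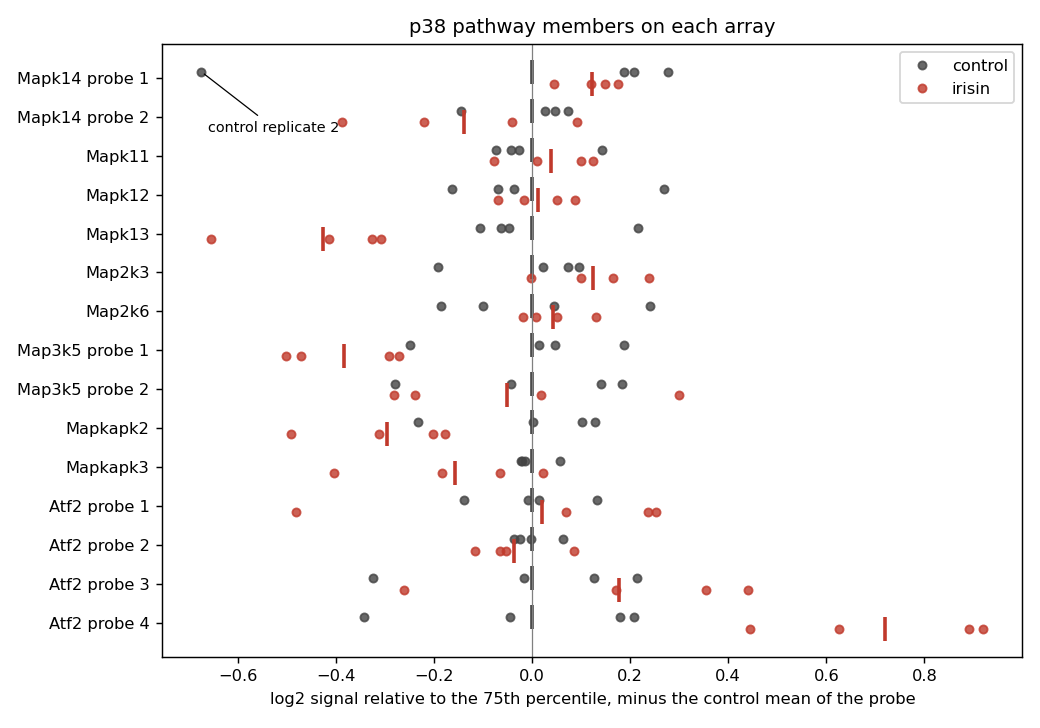
Relative log2 signal of each of the 15 member probes on the 8 arrays, minus the mean of the 4 control arrays for that probe (horizontal axis); points are arrays, vertical strokes are group means, and the probes of a gene are numbered from the brightest. Most red irisin points lie among the grey control points, except for Mapk13 and Map3k5 probe 1 (lower) and Atf2 probe 4 (higher), and control replicate 2 lies far to the left for Mapk14 probe 1.

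Mapk14, the gene of p38α, is covered by a bright and a dim probe. The bright probe, A_55_P2046338, had relative log2 signals of 3.43, 2.54, 3.50 and 3.41 on control replicates 1 to 4. On irisin replicates 1 to 4 it had 3.37, 3.39, 3.26 and 3.34. Control replicate 2 was the only array apart, and the other control arrays were all slightly above the irisin arrays. The group means were 3.22 ± 0.45 in control cells and 3.34 ± 0.057 in irisin-treated cells (SD, n = 4 in each group). The change was 0.12, with a standard error of 0.19 and a 95% interval from -0.29 to 0.54 (adjusted p = 0.712 from limma). It was smaller than the spread between the control arrays, and the exact permutation test (two-sided, 70 possible assignments) gave p = 1. Without control replicate 2 the change was -0.10, in the opposite direction (adjusted p = 0.481 from limma). The dim probe, A_55_P2179348, had -4.23, -4.26, -4.45 and -4.28 on the control arrays and -4.22, -4.35, -4.69 and -4.53 on the irisin arrays. The groups overlapped, and its change was -0.14 (95% interval -0.39 to 0.11, adjusted p = 0.435 from limma). With all arrays the probes of Mapk14 thus differed in sign, and neither change passed the test. This difference in sign rested on control replicate 2. With that array left out, both changes were negative, -0.10 for the bright probe and -0.12 for the dim probe. Neither passed the test there (adjusted p = 0.481 and 0.578 from limma). With normexp background correction the change of the dim probe was -0.42 (adjusted p = 0.00405 from limma), under 1.5-fold, and with quantile normalization it was 0.096. Its background-subtracted signal before scaling was 19.8 to 25.7 on the control arrays and 31.1 to 42.8 on the irisin arrays. Normexp adds an offset of 50 to every spot, above this signal, so -0.42 does not settle the direction.

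The low Mapk14 value of control replicate 2 was found in an area of that array where other genes were low as well. For every spot, the deviation from the median of the other arrays of its group was taken, and around the bright Mapk14 spot the 87 measured spots within 8 rows and 4 columns had a median deviation of -0.28 on control replicate 2. On the other 7 arrays the median at this position ranged from -0.082 to 0.090. Around the other 14 member spots it was between -0.18 and 0.14 on all 8 arrays. On control replicate 2, 96 of 25191 measured spots were lower than the other control arrays by more than 0.7 on the log2 scale, and 55 of these 96 (57.3%) lay within 40 rows of the Mapk14 spot, between the left edge of the array and 15 columns to its right, an area that holds 3.77% of the measured spots. The area held 0 to 13 such low spots on 6 of the other arrays and 52 on irisin replicate 2, which had 1077 of them over the whole array. As a share of the low spots of an array, this was at most 7.69% on the other 7 arrays. The area was outlined after the values were seen. The deposited processing did not mark the Mapk14 spot, and the local background there was 24 on control replicate 2, within the 20 to 31 of the other arrays. When the median deviation of the neighbouring spots was subtracted from each spot, the change of Mapk14 was 0.10. The subtraction took away only a part of the low value, as the Mapk14 spot itself deviated by -0.88 and its neighbours by a median of -0.28.

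**Figure D2:**
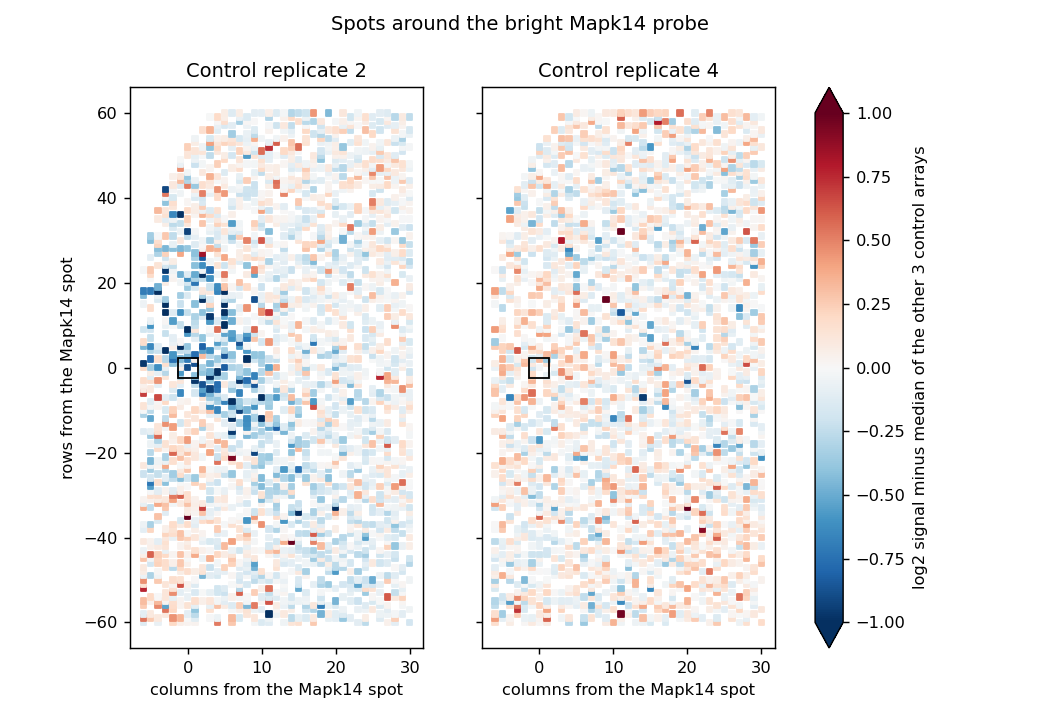
Deviation of each measured spot from the median of the other 3 control arrays (colour, log2 scale) by its distance in rows and columns from the bright Mapk14 spot (black square), for control replicate 2 and, as a comparison, control replicate 4. The blue spots of control replicate 2 gather around the Mapk14 spot, which itself deviates by -0.88. They reach both above it and to its lower right, while control replicate 4 shows no such area.

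The genes whose signals over the 8 arrays were most like those of the bright Mapk14 probe shared this position. Among 22886 other probes well above background on all arrays, the highest Pearson correlations were those of Uqcr10 (r = 0.986), Mrpl13 (0.985), Cbx8 (0.983), Bud31 (0.981) and Stx18 (0.977). These are descriptions over 8 arrays. All 5 spots lay within 16 rows and 5 columns of the Mapk14 spot, and in each of them control replicate 2 was the lowest array (for Uqcr10, 3.51 against 4.81 to 5.17 on the other arrays). Without control replicate 2 the correlations of these 5 genes were between 0.532 and 0.926. None of these 5 probes was called, beside 0.714% of all tested probes called higher and 11.6% called lower.

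The other p38 isoforms are encoded next to each other, Mapk13 beside Mapk14 and Mapk12 beside Mapk11, as neighbouring protein-coding genes in the RefSeq table of the mouse genome. Mapk11, the gene of p38β, had relative log2 signals of -0.62, -0.57, -0.41 and -0.59 in control cells and -0.45, -0.42, -0.62 and -0.54 in irisin-treated cells. The groups overlapped, with a change of 0.039 (95% interval -0.15 to 0.23, adjusted p = 0.801 from limma). Mapk12, the gene of p38γ, had 0.79, 0.88, 1.22 and 0.92 in control cells and 1.04, 0.94, 0.88 and 1.00 in irisin-treated cells. Its irisin values lay inside the control range, and the change was 0.013 (95% interval -0.21 to 0.24, adjusted p = 0.951 from limma).

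Mapk13, the gene of p38δ, had the lowest change among the brightest probes of the members. Its relative log2 signals were -4.19, -4.23, -3.91 and -4.17 in control cells and -4.78, -4.45, -4.43 and -4.54 in irisin-treated cells. Every irisin array was below every control array, and the change was -0.43 (standard error 0.11, 95% interval -0.66 to -0.19). The adjusted p was 0.0142 from limma, and the exact permutation p was 0.0286, the smallest that 4 arrays against 4 allow. The difference, 1.34-fold, did not reach the 1.5-fold threshold and Mapk13 was not called. With an adjusted p under 0.05 alone, 2 of the 10 members were lower and 0 higher, beside 17.8% and 2.7% of all tested genes. Groups that did not overlap were found for the same number of members, 2 lower and 0 higher, beside 19.7% and 4.16% of all tested genes. Mapk13 was dim, at a background-subtracted signal of 20.5 to 35.6 on the control arrays and 29.0 to 37.3 on the irisin arrays before scaling. Its change was -0.52 with normexp background correction, which adds an offset of 50 to every spot, above this signal on every array. The change of Mapk13 was -0.20 with quantile normalization, -0.16 after cyclic loess, 0.15 with spike-in scaling and 0.31 without scaling.

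Among the kinases upstream of p38, Map3k5 was lower with irisin in its bright probe and not in its dim probe. ASK1, its product, is a MAP3 kinase that responds to oxidative stress. The bright probe, A_55_P2079967, had 0.29, 0.32, 0.46 and 0.024 on the control arrays and -0.23, -0.018, 0.0021 and -0.20 on the irisin arrays. The groups did not overlap, although control replicate 4 lay just above irisin replicate 3. The change was -0.38 (standard error 0.11, 95% interval -0.62 to -0.14, adjusted p = 0.0243 from limma; exact permutation test, p = 0.0286), a 1.3-fold difference that was not called. With single arrays left out it stayed between -0.47 and -0.32, with an adjusted p between 0.0094 and 0.0739 from limma. The methods' test gave this probe an adjusted p of 0.0558. The dim probe, A_52_P656714, had -1.82, -1.86, -2.28 and -2.04 on the control arrays and -1.70, -2.24, -2.28 and -1.98 on the irisin arrays. Its groups overlapped widely and the change was -0.051 (adjusted p = 0.856 from limma). The mean over both probes had a change of -0.22 (adjusted p = 0.104 from limma, over the means of all genes).

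The MAP2 kinases showed no change beyond the spread between arrays. Map2k3 had 0.72, 0.74, 0.67 and 0.45 in control cells and 0.81, 0.88, 0.64 and 0.74 in irisin-treated cells. Control replicate 4 was its lowest array, and the change of 0.13 (95% interval -0.082 to 0.33, adjusted p = 0.398 from limma) did not pass the test. Map2k6 had -0.12, -0.21, 0.22 and 0.027 in control cells and 0.031, -0.011, -0.038 and 0.11 in irisin-treated cells. The irisin values lay within the range of the control values, with a change of 0.042 (95% interval -0.18 to 0.27, adjusted p = 0.824 from limma).

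Of the kinases downstream of p38, Mapkapk2 had the larger difference. MK2, its product, controls the stability and translation of mRNAs with AU-rich elements. Mapkapk2 had 1.79, 1.89, 1.92 and 1.55 in control cells and 1.59, 1.47, 1.29 and 1.61 in irisin-treated cells. Only control replicate 4 reached into the irisin range, and the change was -0.30 (standard error 0.11, 95% interval -0.54 to -0.056, adjusted p = 0.0742 from limma; exact permutation test, p = 0.0857). With single arrays left out, its adjusted p lay between 0.0308 and 0.199 from limma, and it was under 1.5-fold throughout. Mapkapk3, the gene of MK3, had 0.92, 0.93, 1.00 and 0.92 in control cells and 0.88, 0.97, 0.54 and 0.76 in irisin-treated cells. Irisin replicate 3 was the lowest, and the change was -0.16 (95% interval -0.38 to 0.063, adjusted p = 0.308 from limma).

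Atf2, a transcription factor of the CREB family that p38 and JNK phosphorylate, is covered by 4 probes that did not move alike. The brightest, A_55_P2062891, had 2.04, 1.93, 1.90 and 1.77 on the control arrays and 2.16, 1.43, 2.15 and 1.98 on the irisin arrays. Its change was 0.020 (95% interval -0.32 to 0.36, adjusted p = 0.951 from limma). Without irisin replicate 2, the lowest array, the change was 0.19. The second, A_55_P2175550, had control values from -0.96 to -0.86 and irisin values from -1.04 to -0.84, a change of -0.037 (adjusted p = 0.789 from limma). The third, A_55_P2146620, had control values from -4.75 to -4.22 and irisin values from -4.69 to -3.99, a change of 0.18 (adjusted p = 0.513 from limma). Irisin replicate 2 was the lowest irisin array in 3 of these 4 probes, all but A_55_P2175550.

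The fourth Atf2 probe, A_52_P116253, was the only called probe of the 15, beside 0.714% of all tested probes called higher and 11.6% called lower. It had -5.81, -5.78, -6.33 and -6.04 on the control arrays and -5.10, -5.55, -5.07 and -5.37 on the irisin arrays, with every irisin array above every control array. The change was 0.72 (standard error 0.15, 95% interval 0.39 to 1.05, adjusted p = 0.00446 from limma; exact permutation test, p = 0.0286), a 1.65-fold increase, and it was called with each array left out in turn. The probe was dim, with a background-subtracted signal of 6.62 to 8.82 on the control arrays and 14.6 to 23.9 on the irisin arrays before scaling, beside a median of about 1 for negative control spots on each array. With normexp background correction its change was -0.28, in the opposite direction, and with quantile normalization it was 1.15. The offset of 50 that normexp adds exceeds the signal of this probe on every array, so -0.28 does not settle its direction. The mean over the 4 probes had a change of 0.22 (adjusted p = 0.242 from limma, over the means of all genes).

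**Figure D3:**
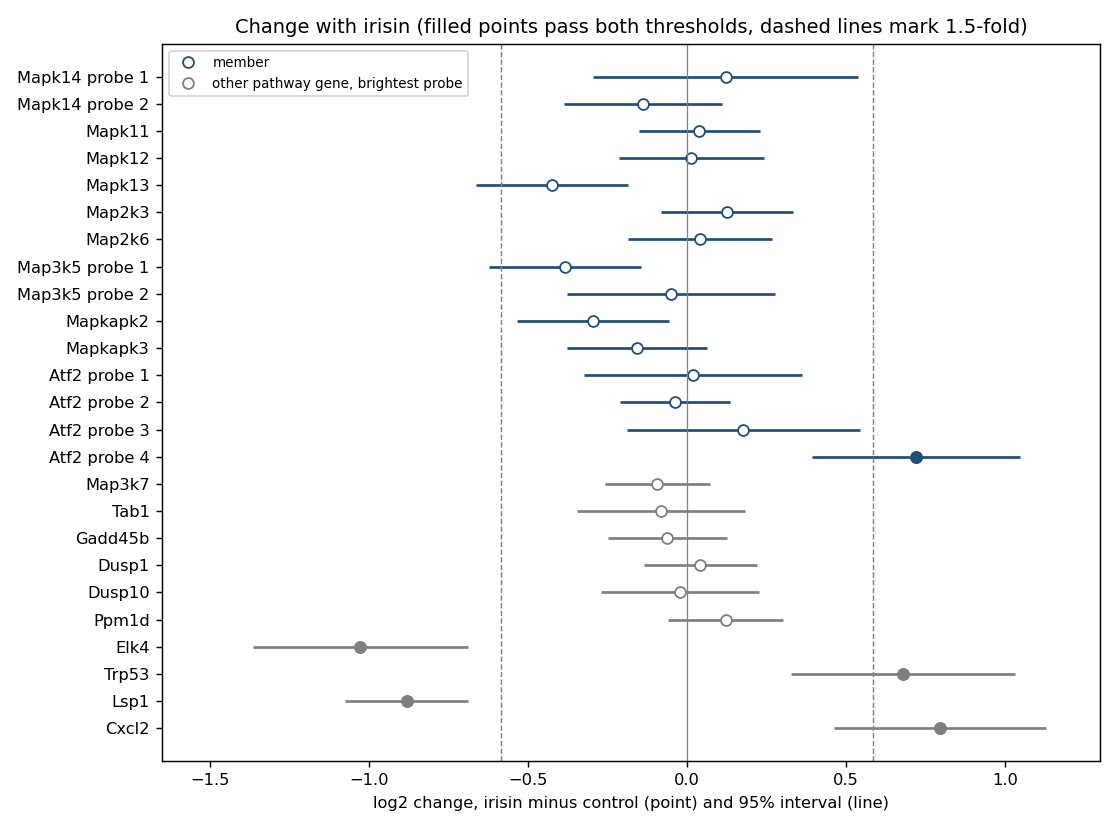
Log2 change with irisin (points) and its 95% interval (lines) for each member probe (blue) and for the brightest probe of the further named pathway genes (grey). Filled points were called, and dashed lines mark 1.5-fold. Among the members only Atf2 probe 4 (0.72) was called, and Elk4 (-1.03) and Lsp1 (-0.88) lie lowest of the further genes.

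Scaling by 1 value per array (the 75th percentile, the spike-in controls or none) shifts all probes by the same amount. Scaled to the 75th percentile, all tested probes had a median change of -0.079. This median was 0.50 when the spike-in controls were used instead and 0.66 without scaling, and the median change of the members was 0.096 above it in each of the 3. With spike-in scaling 5 members were called higher by their brightest probe, Mapk14, Mapk11, Mapk12, Map2k3 and Map2k6. Counted by probe, 7 of the 15 member probes were called higher, beside 32.5% of all tested probes. With no scaling Atf2 was called as well, 6 members in all, and 11 of the 15 member probes, beside 61.9% of all tested probes. With these scalings Mapk13, Map3k5, Mapkapk2 and Mapkapk3 had changes above 0, below the median of all probes. Quantile normalization, cyclic loess and normexp called 0 of the 10 members. Of all 24091 tested probes, quantile normalization called 671 higher and 1016 lower, cyclic loess 693 and 924, and normexp 53 and 1429. Between these settings Mapk13 ranged from -0.52 to -0.16, while Map3k5 stayed between -0.39 and -0.38.

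**Figure D4:**
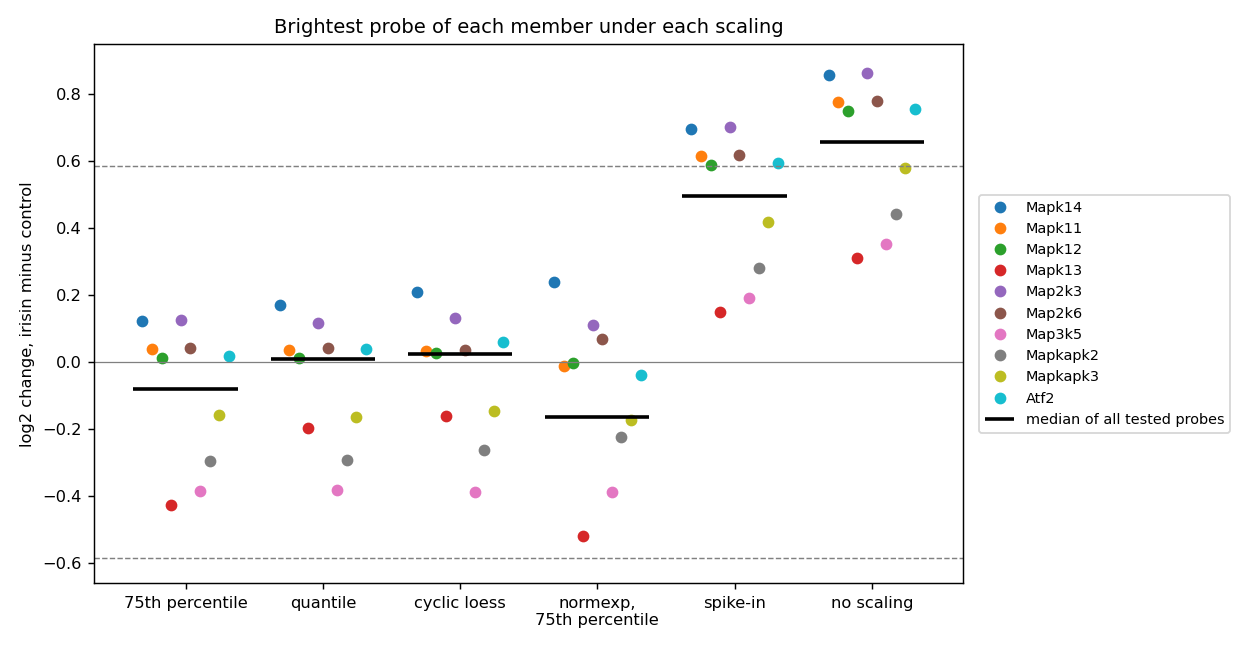
Log2 change of the brightest probe of each member (coloured points) under 6 ways of scaling or background correction, with the median of all tested probes (black lines) and 1.5-fold (dashed lines). With spike-in scaling and no scaling all points and the black line (0.66 with no scaling) lie above 0, while with the other settings the line lies between -0.16 and 0.024 and single members shift in either direction.

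Other genes of the pathway were taken from 6 lists written from general knowledge, with 68 genes, of which 63 were tested. Limma called 2 of them higher and 2 lower, beside 0.531% and 10.1% of all tested genes, and their median change was -0.022, beside -0.063 for all tested genes. Of the upstream kinases and adaptors, 18 of 18 were tested and 0 were called, beside the same 0.531% and 10.1% of all tested genes. At an unadjusted p under 0.05, 2 were higher and 2 lower, beside 6% and 23.5% of all tested genes, and the median change was -0.053. Among them, Map3k7, the gene of the kinase TAK1, had a change of -0.093 in its brightest probe (adjusted p = 0.429 from limma). In its other probes the change was 0.28 (adjusted p = 0.0472 from limma, not 1.5-fold) and -0.026 (adjusted p = 0.874). Tab1, whose product binds TAK1 and p38α, had a change of -0.081 (adjusted p = 0.695 from limma). Gadd45b, a stress-induced gene whose product binds MAP3 and MAP2 kinases, had 1.60, 1.47, 1.63 and 1.54 in control cells and 1.43, 1.63, 1.39 and 1.53 in irisin-treated cells. These values overlapped and the change was -0.061 (95% interval -0.25 to 0.13, adjusted p = 0.676 from limma).

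Of the phosphatases that switch p38 off, 9 of 10 were tested and 0 were called, beside 0.531% called higher and 10.1% called lower of all tested genes. At an unadjusted p under 0.05, 1 was higher and 1 lower (6% and 23.5% of all tested genes), and the median change was 0.12. The change was 0.042 for Dusp1 (95% interval -0.13 to 0.22), -0.022 for Dusp10 (-0.27 to 0.23) and 0.12 for Ppm1d (-0.059 to 0.30). These genes encode the nuclear phosphatase MKP-1, the phosphatase MKP-5 and the p53-induced phosphatase WIP1. Ptpn7 was not tested. Of 5 further kinases that p38 phosphorylates, limma called 0, beside the same 0.531% and 10.1% of all tested genes. At an unadjusted p under 0.05, 0 were higher and 2 lower (6% and 23.5% of all tested genes), with a median change of -0.040.

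Among 12 transcription factors phosphorylated by p38, 11 were tested, and 1 was called higher and 1 lower, beside 0.531% and 10.1% of all tested genes. At an unadjusted p under 0.05, 1 was higher and 3 lower, beside 6% and 23.5%, and the median change was -0.060. Elk4, a ternary complex factor that acts with SRF, fell from -1.17, -1.08, -1.11 and -0.97 in control cells to -2.22, -1.71, -2.52 and -1.99 in irisin-treated cells. Every irisin array was below every control array. The change was -1.03 (95% interval -1.36 to -0.69, adjusted p = 0.00072 from limma). A second Elk4 probe fell by 0.88 (adjusted p = 0.00824 from limma), while the third had a change of -0.12 (adjusted p = 0.608 from limma). Spike-in scaling and the unscaled values gave no call for Elk4, although the changes of both called probes stayed below 0. Trp53, the gene of p53, rose from -1.11, -1.04, -0.95 and -0.65 in control cells to -0.71, -0.052, -0.048 and -0.22 in irisin-treated cells. Its groups overlapped in control replicate 4 and irisin replicate 1, and the change was 0.68 (95% interval 0.33 to 1.03, adjusted p = 0.00925 from limma; exact permutation test, p = 0.0571). Trp53 was not called by the methods' test (adjusted p = 0.0501).

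Of the MK2 substrates, 10 of 10 were tested, and 0 were called higher and 1 lower, beside 0.531% and 10.1% of all tested genes. At an unadjusted p under 0.05, 0 were higher and 4 lower, beside 6% and 23.5%, and the median change was -0.071. The called gene was Lsp1, which encodes an actin-binding protein best known from leukocytes. Lsp1 fell from -3.44, -3.36, -3.22 and -3.18 to -4.24, -4.11, -4.24 and -4.14. The arrays of each group lay close together, and the change was -0.88 (95% interval -1.07 to -0.69, adjusted p = 0.000128 from limma). It was not called with spike-in scaling (-0.31) or without scaling (-0.14). Of 15 genes whose mRNA has AU-rich elements under the control of p38 and MK2, 12 were tested. Limma called 1 higher and 0 lower, beside 0.531% and 10.1% of all tested genes. At an unadjusted p under 0.05, 4 were higher and 1 lower, beside 6% and 23.5%, and the median change was 0.14. The called gene was Cxcl2, a chemokine that attracts neutrophils. It rose from -4.63, -4.47, -4.58 and -4.52 in control cells to -3.31, -4.03, -3.67 and -4.01 in irisin-treated cells, with a change of 0.80 (95% interval 0.46 to 1.13, adjusted p = 0.00281 from limma). Cxcl2 was dim, with a control mean of -4.55, below the -4.31 of the dim Mapk14 probe. With normexp background correction, which adds an offset of 50 to every spot, the change of Cxcl2 was -0.067. The cytokine genes Tnf, Il6 and Il1b were not well above background on all arrays of either group and were not tested.

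The summed signal of marker lists was lower on the irisin arrays for some lists, that of hepatocyte markers among them. For the hepatocyte markers, 11 of 12 tested, the summed linear signal was 461 to 511 times the 75th percentile on the control arrays and 375 to 440 times on the irisin arrays. A linear sum follows its brightest genes, here Krt18 and Trf, with changes of -0.47 and -0.38. Alb was at 0.11, Apob at 0.24, Ttr at -0.047 and Hnf4a at -0.096. The median change of the 11 markers was -0.096, beside -0.063 for all tested genes. Only Tat, a dim marker, was called lower, beside 10.1% of all tested genes. The summed linear signal of macrophage markers, 3 of 6 tested, was 1.91 to 2.54 times the 75th percentile on the control arrays and 1.55 to 1.86 times on the irisin arrays. Limma called 0 of these 3, beside 0.531% called higher and 10.1% called lower of all tested genes. Of the 3, 0 were higher and 2 lower at an unadjusted p under 0.05, beside 6% and 23.5% of all tested genes. That of endothelial markers, 2 of 5 tested, was 0.693 to 0.774 and 0.405 to 0.572, and 1, Pecam1, was called lower, beside 10.1% of all tested genes. That of stellate cell and fibroblast markers, 3 of 6 tested, was 0.0950 to 0.141 and 0.0610 to 0.0816, and 2, Acta2 and Col1a2, were called lower, beside 10.1% of all tested genes. The cholangiocyte and progenitor markers, 5 of 6 tested, overlapped at 56.2 to 62.9 and 58.8 to 61.7. The defining markers Ptprc, Adgre1, Cdh5, Pdgfrb and Lrat were not well above background on all arrays of either group. The part of these differences in the pathway genes was not tested.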

How the data were processed

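The 8 arrays were grouped by their labels. The authors used Cy3-labeled cRNA on one-color Agilent arrays and Feature Extraction 12.0.3.1, per the file headers. They deposited signal intensity on a linear scale, background-subtracted and detrended within each array, not normalized between arrays, together with flags of 0 or 1 for each spot (other). The value table holds the same processed signals, averaged over the spots of a probe. The members and the gene lists were chosen with earlier results of these data known.

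Spots marked as outliers were left out, spots of a probe were averaged, and the 75th percentile over 39429 probes was subtracted from the log2 signals of each array. Symbols came from matching each probe's accession to RefSeq genes (assembly GRCm38.p6). The array annotation uses a different build, so no coordinates are printed. A probe was tested when either group had it well above background on its 4 arrays, with limma 3.58.1 in R 4.3.3 (lmFit, eBayes, Benjamini-Hochberg). Single probes were also tested with exact two-sided permutation tests. For a gene, the probe with the highest mean signal was used. Named genes are all member probes, 6 regulators (Map3k7, Tab1, Gadd45b, Dusp1, Dusp10 and Ppm1d), every called gene of the 6 pathway lists and the 5 genes most like Mapk14. The fit was tested on simulated data.

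Alternatives were normexp (offset 50), quantile, cyclic loess, spike-in and no scaling, the median of detected probes, the value table, other filters, marked spots kept, other variance models, the replicate block, left-out arrays, other thresholds and the methods' test. Normexp used the median spot signal. In 16 spots of irisin replicates 2 and 4 the local background was at least 100, which moved the fitted background of these arrays to -306 and -395, against -10.7 to -8.06 on the others. The median background of the array was used there instead. This and the subtraction of neighbouring spots were chosen after seeing the data. Files were read with pandas 2.3.3 in Python 3.11.15, and plots drawn in matplotlib 3.10.9.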

Additional observations from a re-analysis of the deposited data

Results flagged for a closer look

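In 3 of 58 groups of 4 arrays, taken over the probes of the members and of the named pathway genes, 1 array lay far from the other 3. Chance alone gives about 1 such group in 20. The bright Mapk14 probe was at 2.54 on control replicate 2, against 3.41 to 3.50 on the other control arrays (relative log2 signal), in the area of low spots described above. Mapkapk3 was at 1.00 on control replicate 3, above 0.92 to 0.93 on the other control arrays. Dusp10 was at 1.49 on irisin replicate 2, above 1.10 to 1.15 on the other irisin arrays.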

How the results depend on the processing

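The number of called probes, 2970 with the settings of the report (172 higher and 2798 lower), was 1687 with quantile normalization (671 and 1016), became 1617 after cyclic loess (693 and 924), 8180 when scaled to the spike-in controls (7820 and 360), 15078 without scaling (14916 and 162), 12880 with no filter on dim probes, 5903 with the adjusted p alone, 795 at 2-fold and between 2784 and 3417 with single arrays left out. The probes called higher became 356 without irisin replicate 2 and 104 without irisin replicate 3. With normexp it was 1482, and 0 with the local backgrounds as deposited, where limma's unadjusted p was under 0.05 for 4083 probes and the median standard error rose from 0.106 to 0.181. Of the 10 members, 0 were called, and this became 5 with spike-in scaling, 6 without scaling and 2 with the adjusted p alone, and stayed 0 under every other setting run, including the average of a gene's probes and each left-out array. Of the 15 member probes, 1 was called, and this became 7 with spike-in scaling, 11 with no scaling, 3 with the adjusted p alone, and 0 at 2-fold, with normexp and with normexp on the local backgrounds as deposited. The same replicate numbers did not pair the arrays (correlations of same-numbered deviations between -0.333 and 0.152), and with the replicate block 2986 probes, 0 members and 1 member probe were called.

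Directions turned as follows, in log2 change. With spike-in scaling and without scaling, respectively, the dim Mapk14 probe was at 0.44 and 0.60, Mapk13 at 0.15 and 0.31, Map3k5 at 0.19 and 0.35 (dim probe 0.53 and 0.69), Mapkapk2 at 0.28 and 0.44, Mapkapk3 at 0.42 and 0.58, the second Atf2 probe at 0.54 and 0.70, Map3k7 at 0.48 and 0.64 (A_55_P2127804 at 0.55 and 0.71), Tab1 at 0.49 and 0.66, Gadd45b at 0.51 and 0.68, Dusp10 at 0.55 and 0.72 and the dimmest Elk4 probe at 0.46 and 0.62. With normexp, Mapk11 was at -0.012, Mapk12 at -0.0016, Atf2 at -0.039, -0.31 (A_55_P2146620) and -0.28 (A_52_P116253), the Map3k7 probe A_52_P175952 at -0.059, Gadd45b at 0.0095, Dusp10 at 0.017 and Cxcl2 at -0.067. With quantile normalization and after cyclic loess, the dim Mapk14 probe was at 0.096 and 0.13 and the dimmest Elk4 probe at 0.036 and 0.073, the dim Map3k5 probe was at 0.0035 with cyclic loess, and Mapk12 was at -0.0017 with the median of detected probes. With single arrays left out, changes near 0 took both signs for Mapk14 (-0.10 to 0.21), Mapk12 (-0.042 to 0.10), Map2k6 (-0.020 to 0.12), the dim Map3k5 probe (-0.17 to 0.026), Atf2 (-0.058 to 0.19), the Map3k7 probe A_55_P2127804 (-0.074 to 0.012), Tab1 (-0.18 to 0.0044) and Dusp10 (-0.12 to 0.033). Spike-in scaling and no scaling shift all probes by the same amount, and the turns listed for them are that shift. Normexp adds an offset of 50 to every spot, which is above the signal of the dimmest probes before scaling. The cause of the other turns was not tested. Signal over background limits the precision of dim probes, such as the fourth Atf2 probe, at 6.62 to 8.82 on the control arrays before scaling.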
